A study of Mus musculus with 32 samples.

Results

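Cxcr2 and Asprv1 are 2 of the 26305 features in these lung RNA data that carry their own Ensembl gene identifier, and 2 of the 2749 such genes that were abundant enough to be tested (a mean of at least 0.1 FPKM over all mice; FPKM counts fragments per unit of transcript length and per unit of sequencing depth). They were chosen by their measured levels in dexamethasone-treated mice and by their correlation across the 16 mice. The members' dexamethasone differences and their correlation are therefore a description here, and no test of either is read as a result.

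Lung RNA came from 16 male wild-type mice of the strain C57BL/6J, aged 6 to 8 weeks, in 4 groups of 4, and each mouse was sequenced on 2 lanes. Control mice received neither dust nor drug. WTCPM mice received World Trade Center particulate matter, dust gathered around Ground Zero, by the nose. The other two groups received the same dust and an injection into the peritoneum of either rosoxacin, a quinolone antibiotic, at 5 mg/kg, or dexamethasone, a synthetic glucocorticoid, at 0.1 mg/kg. When the drugs were given and the lungs taken is not stated in the labels, which also mention no vehicle injection for control and WTCPM mice. No group received a drug without dust, so a drug can be compared only in dust-exposed lungs. Whole lung is a mixture of cell types, and in such bulk RNA more cells of a type and more transcript per cell cannot be told apart.

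Cxcr2 encodes a G protein-coupled receptor for chemokines with an ELR motif, such as CXCL1, CXCL2 and CXCL5. It is carried mainly by neutrophils, draws them from bone marrow into blood, and guides them into inflamed lung. Asprv1 encodes a retroviral-like aspartic protease best known from the outer epidermis, where it processes profilaggrin, and its transcript has also been described in mouse neutrophils. Dexamethasone acts on the glucocorticoid receptor, a transcription factor, and glucocorticoids are known to raise the number of circulating neutrophils while they damp the release of many inflammatory mediators.

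Cxcr2 (ENSMUSG00000026180.8) lies on chromosome 1, from 74153989 to 74161246 of the mm10 assembly, on the plus strand. Its GENCODE M21 annotation has 2 transcripts of 2220 and 3046 nucleotides, with 3 and 2 exons, and its nearest neighbours are Rufy4 at 5766 bp, Tns1 at 29540 bp and Cxcr1, the gene of the related receptor, at 30539 bp. Asprv1 (ENSMUSG00000033508.7) lies on chromosome 6, from 86628164 to 86629710, on the plus strand, as a single exon of 1547 nucleotides, with Mxd1 at 17332 bp. No other annotated gene overlaps either of them.

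The 250 bases before each RefSeq start (GRCm38.p6) are printed because the members were chosen for their levels after a ligand of a transcription factor. Capitals mark the glucocorticoid receptor half-site AGAACA and the ETS-type core GAGGAA of PU.1-like sites, each searched on both strands.
Cxcr2, chr1:74153744-74153993, plus strand: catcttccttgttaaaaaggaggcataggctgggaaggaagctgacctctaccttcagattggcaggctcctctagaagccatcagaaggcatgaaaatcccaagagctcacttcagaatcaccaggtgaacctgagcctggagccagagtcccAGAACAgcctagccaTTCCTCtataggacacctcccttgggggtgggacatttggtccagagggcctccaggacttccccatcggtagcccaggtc
Asprv1, chr6:86627924-86628173, plus strand: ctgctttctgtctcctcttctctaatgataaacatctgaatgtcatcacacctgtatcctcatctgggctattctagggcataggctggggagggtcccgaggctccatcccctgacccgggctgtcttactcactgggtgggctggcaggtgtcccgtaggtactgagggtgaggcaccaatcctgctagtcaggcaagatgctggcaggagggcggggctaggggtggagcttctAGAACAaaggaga

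AGAACA occurred once in each window, starting 96 bases before the start of Cxcr2 and 13 bases before that of Asprv1, where it reaches past the start that GENCODE gives. It is a common word, held on either strand by 16.1% of 32851 mouse promoter windows of this length. The full palindrome of that half-site and its reverse complement, spaced by any 3 bases, was in neither window and in 0.00913% of all. GAGGAA, held by 23.3% of windows, occurred once before Cxcr2, on the other strand and 81 bases from the start, and not before Asprv1. The C/EBP word TTNNGNAAT (10.2% of windows) and the AP-1 word TGANTCA (6.75%) occurred in neither window. None of these matches overlapped another. The longest run of letters the windows share, sought after the sequences were seen, was ggcataggctggg, 229 bases before Cxcr2 and 173 before Asprv1, on the same strand, and 5 of the 32851 windows hold it. A match is a description of letters and not of a bound site. GC content was 54.4% and 56.4%, against a median of 52.4% over all windows.

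Both transcripts were scarce. Over the 16 mice Cxcr2 averaged 0.756 FPKM, which ranked 98 among the 2749 annotated genes tested, and Asprv1 averaged 0.355 FPKM, rank 704. Most of the RNA lay elsewhere, because assembled loci without a gene name held 99.9% of all FPKM. Depth is not stated in the sources used here. It could be inferred, because single-exon genes with few fragments share the step that 1 fragment is worth, and this step gave between 8720000 and 13990000 fragments per lane. On that estimate Asprv1 rested on 5.33 to 29.1 fragments per mouse over both lanes. For Cxcr2 the number depends on which transcript length applies. It was 15.2 to 91.6 fragments per mouse with the short one and 20.8 to 125.7 with the long one.

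Cxcr2 was highest after dust with dexamethasone, with levels of 1.61, 0.941, 1.121 and 0.8288 FPKM in mice 1 to 4. The 4 mice given dust alone had 0.588, 0.599, 0.366 and 0.511 FPKM. Every dexamethasone mouse was above every WTCPM mouse. This also held lane by lane, since the lowest of the 8 dexamethasone lanes (0.697 FPKM) was above the highest of the 8 WTCPM lanes (0.632 FPKM). The group means were 1.13 ± 0.344 and 0.516 ± 0.107 FPKM (SD, n = 4 each), a ratio of 2.18 and a log2 difference of 0.97 on the log2(FPKM + 0.1) scale used throughout (SE 0.30), where adding 0.1 makes the change of a scarce gene look smaller.

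In unexposed control mice Cxcr2 stood at 0.668, 0.366, 0.273 and 0.818 FPKM, the widest spread relative to its mean of the 4 groups (0.531 ± 0.255 FPKM). The highest control mouse lay just under the lowest dexamethasone mouse, so these groups did not overlap either, with a ratio of means of 2.12 and a log2 difference of 1.01 (SE 0.30). Mice given dust with rosoxacin had 1.37, 0.652, 0.737 and 0.651 FPKM, with a mean of 0.854 ± 0.349 FPKM. Rosoxacin mouse 1 stood far above the other 3 and inside the dexamethasone range. The dexamethasone mean was 1.32 times the rosoxacin mean, and these groups overlapped. Over all genes tested, the median log2 difference of dexamethasone against rosoxacin was 0.145.

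Asprv1 showed its highest levels in the same group. The dexamethasone mice had 0.735, 0.741, 0.637 and 0.462 FPKM, and the WTCPM mice had 0.286, 0.325, 0.241 and 0.241 FPKM. All 4 dexamethasone mice exceeded all 4 WTCPM mice, with means of 0.644 ± 0.131 and 0.273 ± 0.0404 FPKM (SD, n = 4 each), a ratio of 2.36 and a log2 difference of 0.98 (SE 0.23). Single lanes overlapped for this gene, since the lowest dexamethasone lane (0.384 FPKM) was below the highest WTCPM lane (0.420 FPKM).

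Control mice held the least Asprv1, with 0.179, 0.128, 0.207 and 0.201 FPKM and a mean of 0.179 ± 0.0362 FPKM. The dexamethasone mean was 3.60 times as high, a log2 difference of 1.41 (SE 0.23). Rosoxacin mice had 0.315, 0.185, 0.473 and 0.320 FPKM, with a mean of 0.323 ± 0.118 FPKM. Rosoxacin mouse 3 reached just above the lowest dexamethasone mouse, and the other 3 lay below all of them. The dexamethasone mean was 1.99 times the rosoxacin mean, a log2 difference of 0.84 (SE 0.23).

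**Figure D1:**
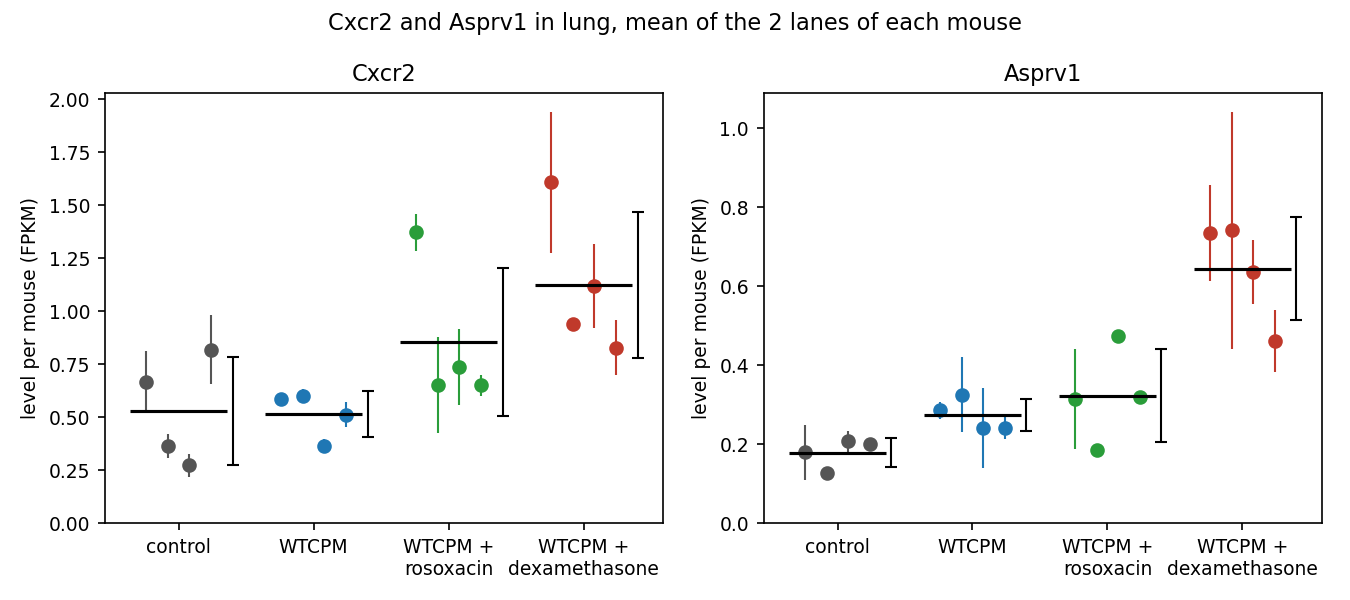
Level of Cxcr2 (left) and Asprv1 (right) in FPKM for each mouse, mice 1 to 4 of each group from left to right. Points are the mean of 2 lanes and thin vertical lines join the lanes; horizontal bars are group means and the bars beside them ± 1 SD (n = 4 mice). The dexamethasone mice lie at 0.8288 FPKM or more for Cxcr2 and 0.462 FPKM or more for Asprv1, above all control and WTCPM mice.

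These comparisons share mice, since the WTCPM and control mice serve both drug groups, and their values are given side by side for that reason. The order of the means differed between the genes. For Cxcr2, WTCPM and control were nearly equal, then came rosoxacin and dexamethasone, and no mean differed from the next in that order by more than the SD of both groups. For Asprv1 the order was control, WTCPM, rosoxacin and dexamethasone. The steps from control to WTCPM and from rosoxacin to dexamethasone exceeded the SD of both groups, and the step from WTCPM to rosoxacin did not.

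How often groups of 4 separate in this way bears on these counts. Among the 2749 annotated genes, 48 (1.75%) had all 4 dexamethasone mice above all 4 WTCPM mice, and 37 (1.35%) had them above all 4 controls. By the limma test with Benjamini-Hochberg adjustment, 0 genes (0%) passed an adjusted p of 0.05 for dexamethasone against WTCPM, with 148 at an unadjusted p under 0.05. For dexamethasone against control 1 gene (0.0364%) passed, with 137 at an unadjusted p under 0.05. Leaving out 1 mouse at a time gave 0 to 3 genes in place of that 1. These are counts over all genes, the members included, and the 1 gene that passed against control was Asprv1 itself. That count is therefore no background for the members. Because both members were chosen by their dexamethasone values, nothing is read from the members' place in them.

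The counting error of the levels was estimated from the fragments, as a description. Pooled over the 8 lanes of a group, Asprv1 had an estimated 0.274 fragments per 1000000 in control (95% exact Poisson interval 0.180 to 0.399), 0.422 in WTCPM (0.292 to 0.591), 0.497 in rosoxacin (0.353 to 0.680) and 1.00 in dexamethasone mice (0.806 to 1.23). Cxcr2, with the short transcript length, had 1.11 in control (0.913 to 1.34), 1.15 in WTCPM (0.926 to 1.41), 1.92 in rosoxacin (1.62 to 2.25) and 2.58 in dexamethasone mice (2.26 to 2.94). For Cxcr2 the pooled interval of rosoxacin lay above those of control and WTCPM. Of its estimated 149.7 fragments, 63.1 came from rosoxacin mouse 1. These intervals cover counting error only and not the spread between mice.

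**Figure D2:**
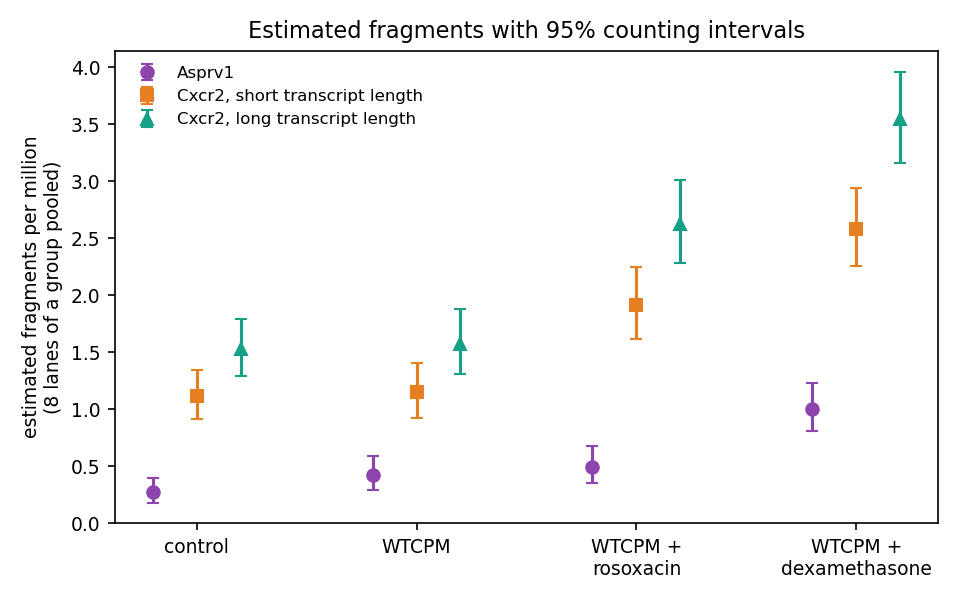
Estimated fragments per 1000000 for Asprv1 and for Cxcr2 with either transcript length, with the 8 lanes of each group pooled; bars are 95% exact Poisson intervals for counting error. Asprv1 stands at 1.00 after dexamethasone and at 0.497 or less in the other groups, and the long transcript length raises every Cxcr2 value.

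The spread between lanes was of the same order as that between mice. The higher lane of a mouse had up to 2.06 times the Cxcr2 level of the lower one (rosoxacin mouse 2), with a median ratio of 1.37, and up to 2.47 times for Asprv1 (WTCPM mouse 3), with a median of 1.29. The SD between lanes was 0.2 FPKM for Cxcr2 and 0.141 FPKM for Asprv1, against 0.282 and 0.0920 FPKM between mice within groups. For Asprv1, then, the SD between lanes was the larger, but it rested largely on dexamethasone mouse 2, with lanes at 0.442 and 1.041 FPKM. The mean of these lanes, 0.741 FPKM, was the highest Asprv1 level of any mouse.

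Cxcr2 has 2 rows in the deposited table, which do not name their transcripts. The first row was above 0 in 5 lanes, 1 each of control mouse 1, WTCPM mouse 4, rosoxacin mouse 1, dexamethasone mouse 1 and dexamethasone mouse 3. The second row alone averaged 0.439 ± 0.256 FPKM in control mice, 0.445 ± 0.181 after dust alone, 0.742 ± 0.131 with rosoxacin and 0.820 ± 0.0923 with dexamethasone (SD, n = 4 each). On that row the dexamethasone mice lay within 0.722 to 0.941 FPKM. The division between the rows changed from lane to lane of 1 mouse. In dexamethasone mouse 1, the first lane had 0 FPKM on the first row and 1.28 FPKM on the second, and the second lane had 1.65 and 0.295 FPKM, so that its sum was high on both lanes. The log2 difference between dexamethasone and rosoxacin was 0.13 on the second row against 0.38 for the sum, and for the sum it was 0.75 after rescaling to TPM and 0.16 with median-of-ratios scaling.

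The comparisons without dexamethasone mice were tested with limma. The correlation that helped to choose the members also used these mice, so the tests are not independent of the choice. After dust alone the Cxcr2 mean was 0.516 ± 0.107 FPKM against 0.531 ± 0.255 in control (SD, n = 4 each), with the WTCPM mice inside the control range. The log2 difference was 0.04 (95% interval -0.59 to 0.67), the adjusted p was 0.988, and the sign turned under other scalings. Asprv1 was above the control range in all 4 WTCPM mice, and the ratio of means was 1.53. Its log2 difference of 0.42 (95% interval -0.05 to 0.90, unadjusted p = 0.0770) did not pass the limma test, with an adjusted p of 0.894. As background, 51 genes (1.86%) had all 4 WTCPM mice above all 4 controls, and 0 (0%) passed an adjusted p of 0.05, with 141 at an unadjusted p under 0.05.

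With rosoxacin added to dust, Cxcr2 was higher in all 4 mice than in any WTCPM mouse, with a ratio of means of 1.65. The log2 difference of 0.59 (95% interval -0.04 to 1.21) did not pass the limma test (adjusted p = 0.341). Without rosoxacin mouse 1 it was 0.36, and it was 0.19 after rescaling to TPM, 0.30 on lane 1 and 0.83 on lane 2. All 4 rosoxacin mice lay above all 4 WTCPM mice for 60 genes (2.18%), and 15 genes (0.546%) passed the limma test. For Asprv1 the ratio of means was 1.18 and the log2 difference 0.14 (95% interval -0.33 to 0.62, limma adjusted p = 0.804), and the value was -0.02 without rosoxacin mouse 3 and -0.20 after rescaling to TPM.

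Against unexposed control, Cxcr2 in rosoxacin mice differed by 0.63 (95% interval 0.00 to 1.25, unadjusted p = 0.0496, limma adjusted p = 0.258), with 1 of 4 mice above all controls. Asprv1 differed by 0.57 (95% interval 0.09 to 1.04, unadjusted p = 0.0219, limma adjusted p = 0.170), with 3 of 4 mice above all controls, and by 0.32 after rescaling to TPM, 0.30 on lane 1 and 0.83 on lane 2. Here 91 of the 2749 genes (3.31%) passed the test, and neither member was among them. The median gene moved by -0.16 in rosoxacin against WTCPM and by -0.11 in rosoxacin against control, so both members stood above a median that had shifted down. Rosoxacin mice carry the numbers 1 to 4 after the letter S in their data headers, called library numbers here. The headers do not say what these numbers stand for. Drug and library number cannot be told apart for that group.

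Across the 16 mice Cxcr2 and Asprv1 varied together, with Pearson r = 0.699 and Spearman rho = 0.609 of their log2 values. This correlation helped to choose the members and is given without a test. The mice share their libraries and depth for both genes, and the dexamethasone group sits at the high end of both. Without the 2 mice farthest from the median of Cxcr2, dexamethasone mouse 1 and control mouse 3, r was 0.608 (n = 14). Over the 12 mice outside the dexamethasone group it was 0.431 (rho 0.217), and after each group was centred on its mean it was 0.311 (rho 0.338, n = 16). The ratio of Cxcr2 to Asprv1 averaged 2.99 in control mice, 1.89 after dust alone, 2.87 with rosoxacin and 1.75 with dexamethasone. It ranged from 1.32 to 4.06 within the control group alone.

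**Figure D3:**
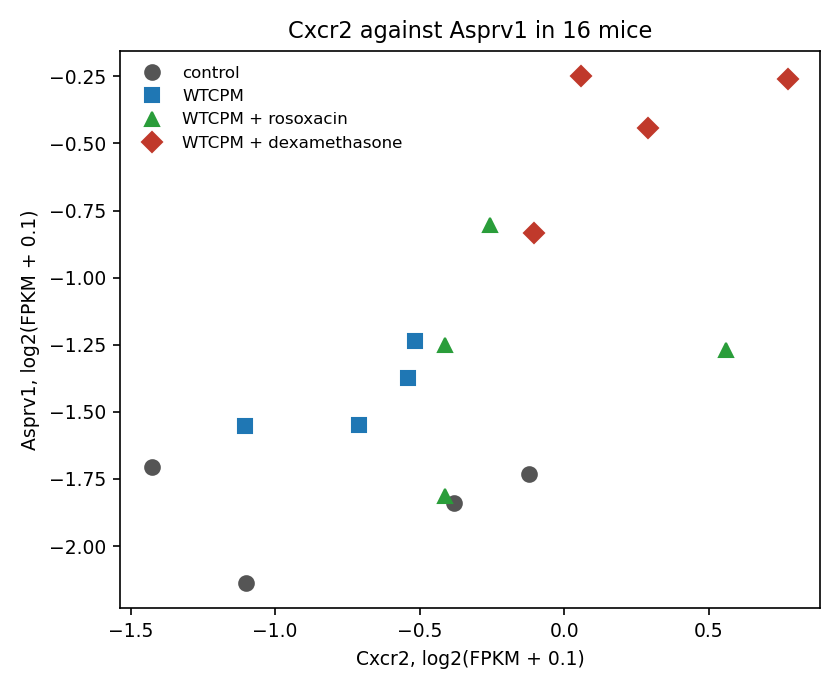
Each point is 1 of 16 mice, with log2(FPKM + 0.1) of Cxcr2 on the x axis and of Asprv1 on the y axis; colour and shape give the group. The 4 dexamethasone mice lie to the upper right; over all 16 mice Pearson r is 0.699, and over the 12 mice of the other groups it is 0.431.

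Seen from Cxcr2, Asprv1 had the third highest r of the 2748 other genes tested, where the median was -0.06 and the 95th percentile 0.357. Seen from Asprv1, Cxcr2 had place 4. Because this r helped to choose the pair, both places are a description only. After centring on group means these places fell to 371 and 490. The named gene most like Cxcr2 over the 16 mice was Aqp9, a channel for water and glycerol found in liver and leukocytes (r = 0.781). It was followed by Asprv1, then Ttc39aos1, an RNA read from the strand opposite Ttc39a (0.678), the pseudogene Gad1-ps (0.664) and Acod1, the itaconate-forming enzyme of activated myeloid cells (0.647). Aqp9 averaged 0.194 ± 0.0492 FPKM after dust alone, 0.315 ± 0.0890 with rosoxacin and 0.298 ± 0.0670 with dexamethasone, and the ranges of the drug groups overlapped.

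The named genes most like Asprv1 were Kif14, a mitotic kinesin (r = 0.719), Stra6l, a relative of the retinol carrier receptor (0.711), Cxcr2, Saa1, an acute-phase serum amyloid (0.684), and Gfi1, a repressor needed for neutrophil formation (0.658). Saa1 averaged 0.286 ± 0.0827 FPKM in WTCPM and 0.509 ± 0.391 in dexamethasone mice, where single mice ran from 0.100 to 0.927 FPKM. Its close copies can share its reads. After centring, the leading genes were others: Olfr1342 (0.837), Prdm8 (0.803) and Dcstamp (0.762) for Cxcr2, and Rbm8a2 (0.746), Csnk2a1-ps (0.734) and Vma21-ps (0.723) for Asprv1. The last 3 have near copies elsewhere in the genome, and their values are uncertain for that reason. These are correlations over 16 points, picked as the highest among 2748.

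The name neutrophil could be checked against few markers. Of 55 neutrophil marker genes, 21 have a row under their own identifier, 16 of these were above 0 in at least 1 mouse, and 4 were abundant enough to test, namely both members, Cxcr1 and Trem3. Mpo, the myeloperoxidase of neutrophil granules, was listed at 0 in all 16 mice. Among the other markers too scarce to test, higher means in dexamethasone than in WTCPM mice outnumbered lower ones. The rest were at 0 in both groups. Gm5483 averaged 0.108 and 0.018 FPKM in these groups, Olfm4 0.088 and 0.050, and Tarm1 0.099 and 0.093. Stfa2l1 averaged 0.098 and 0 FPKM, with 1 dexamethasone mouse above 0. Mrgpra2a averaged 0.0134 and 0.0093 FPKM, and Mrgpra2b 0.0132 and 0.0091. Only Mgam (0.039 and 0.049 FPKM) and Fcnb (0 and 0.006 FPKM, from 1 WTCPM mouse) were lower. Ly6g, the surface antigen that defines mouse neutrophils, was listed at 0 in all WTCPM and rosoxacin mice, and reached at most 0.0553 FPKM in 1 control mouse and 0.134 FPKM among the 2 dexamethasone mice that had any. The 19 markers other than the members summed to 0.982 to 1.98 FPKM in dexamethasone mice, 0.697 to 1.37 in WTCPM, 0.570 to 0.810 in rosoxacin and 0.602 to 1.25 in control mice. Dexamethasone mice thus lay above rosoxacin mice in this sum and overlapped the other groups. Among the 2749 genes tested, 266 (9.68%) had all 4 dexamethasone mice above all 4 rosoxacin mice. The median log2 difference over all of them was 0.145. The part of these markers in the members' levels was not tested.

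Cxcr1, which encodes the other mouse receptor of this kind, had 0.648, 0.440, 0.668 and 0.288 FPKM in dexamethasone mice and 0.734, 0.470, 0.299 and 0.286 FPKM in WTCPM mice. These overlap almost fully, and the log2 difference was 0.18 (SE 0.31, limma adjusted p = 0.979). Trem3, a receptor of myeloid cells, had 0.811, 0.555, 0.155 and 0.509 FPKM after dexamethasone and 0.232, 0, 0.284 and 0.474 FPKM after dust alone. Its difference of 0.91 was close in size to that of the members, with an SE of 0.50 (limma adjusted p = 0.951). Gfi1, the only tested gene of 10 granulopoiesis factors, averaged 0.178 ± 0.0276 FPKM in dexamethasone and 0.138 ± 0.0768 in WTCPM mice (difference 0.27, SE 0.30, limma adjusted p = 0.951).

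The genes of the chemokines that bind CXCR2 were also scarce. Of 7 ligand genes, 4 have their own identifier and 3 were tested, and 0 of the 3 passed limma in any comparison given here. Of all 2749 genes tested, 0% to 3.31% passed in these comparisons, so a count of 0 among 3 says little about the ligands. Cxcl2 had 0.277, 0.392, 0.265 and 0.328 FPKM in dexamethasone mice against 0.886, 0.610, 0.237 and 0.403 in WTCPM mice. Its dexamethasone range lay within the WTCPM range, and the difference was -0.51 (SE 0.32, limma adjusted p = 0.951). Cxcl1 averaged 0.382 ± 0.138 and 0.36 ± 0.0788 FPKM in these groups (difference 0.03, SE 0.31), and Cxcl5 averaged 0.191 ± 0.108 and 0.192 ± 0.0758 (difference -0.06, SE 0.40). Against control, dust alone gave Cxcl2 a log2 difference of 1.08 (SE 0.32, unadjusted p = 0.00343, limma adjusted p = 0.356) and Cxcl5 one of 0.83 (SE 0.40, limma adjusted p = 0.894). The median of the 3 ligands in dexamethasone against WTCPM was -0.06, against 0.00 for all genes tested, and in WTCPM against control it was 0.83 against 0.03.

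**Figure D4:**
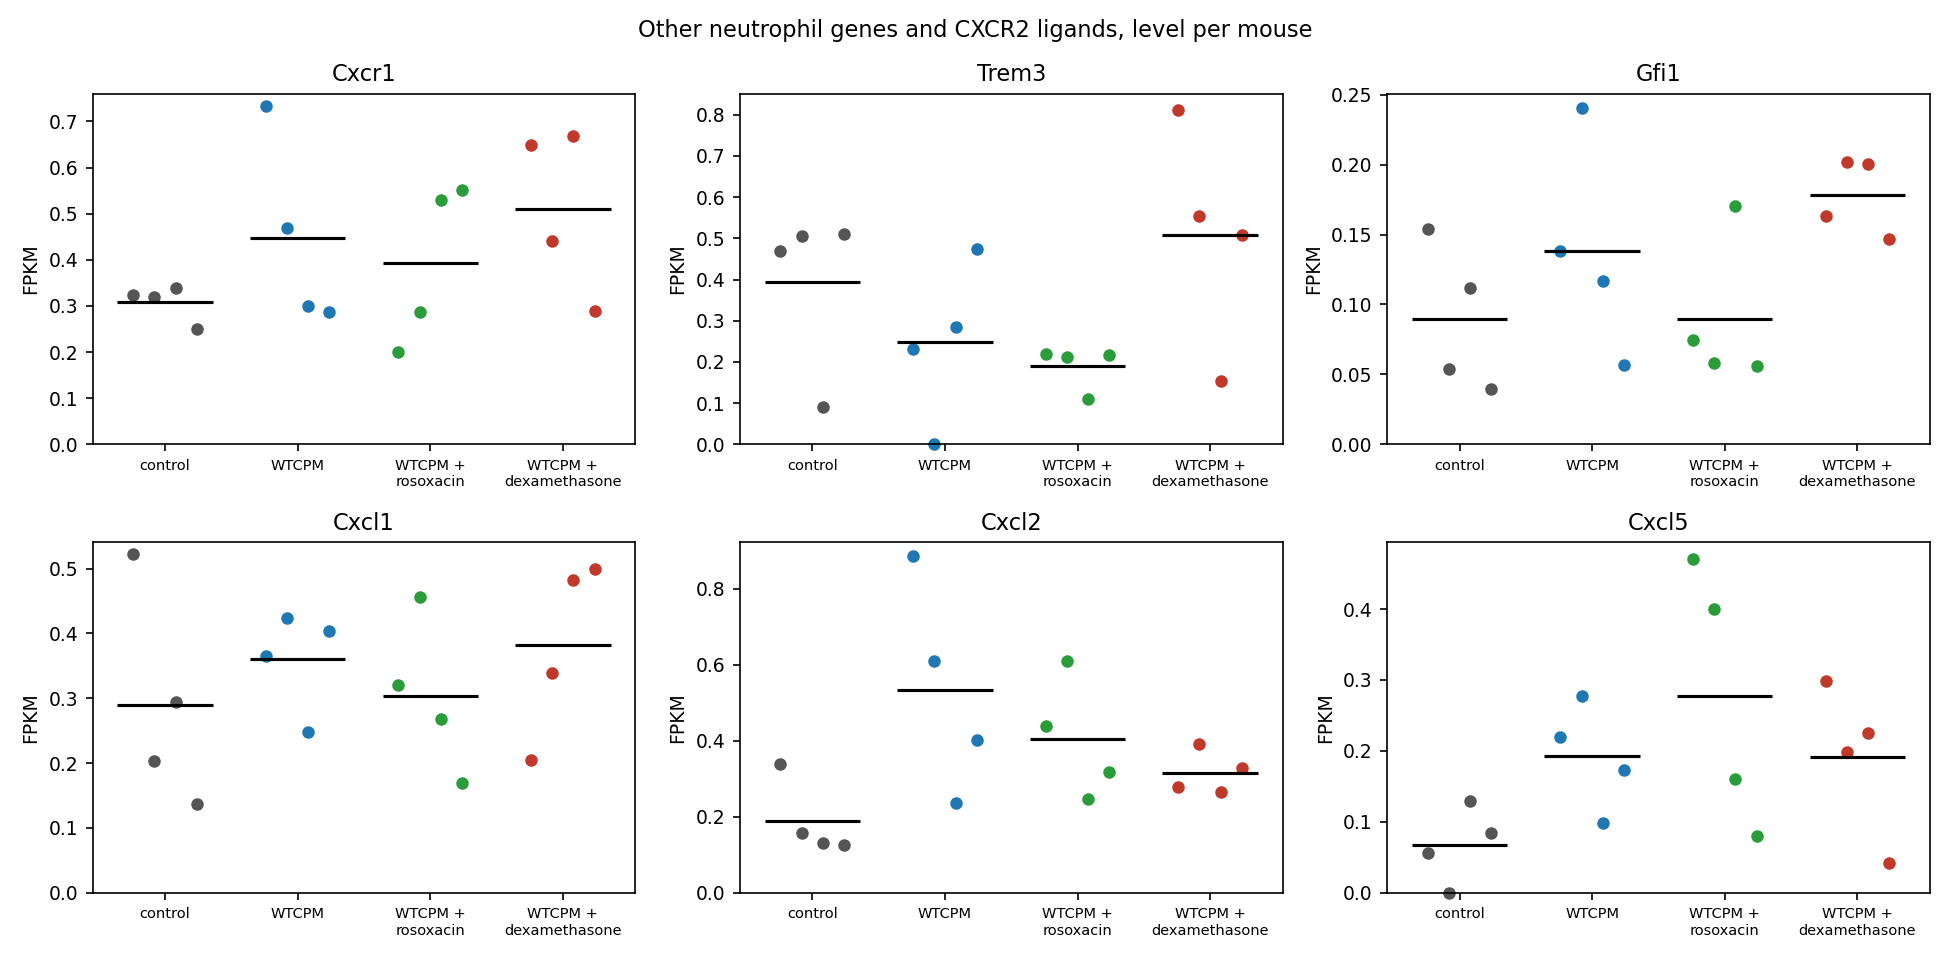
Level in FPKM of Cxcr1, Trem3 and Gfi1 (top) and the ligand genes Cxcl1, Cxcl2 and Cxcl5 (bottom), with mice 1 to 4 of each group from left to right and bars at group means. In none of the 6 panels do all dexamethasone mice lie above all WTCPM mice; Cxcl2 reaches 0.886 FPKM after dust alone and 0.392 FPKM after dust with dexamethasone.

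Among 31 receptors for leukocyte attractants, 9 have their own identifier and 7 were tested. Leaving out Cxcr2, 2 of the other 6 (Cxcr1 and Ccr8, a receptor of T cell subsets) had a higher mean log2 level in dexamethasone than in WTCPM mice, and the median difference of the 6 was -0.18. The complement receptor gene C3ar1 averaged 1.03 ± 0.134 FPKM in dexamethasone and 1.13 ± 0.134 in WTCPM mice (difference -0.13, SE 0.15). Xcr1, a mark of cross-presenting dendritic cells, averaged 0.5 ± 0.137 and 0.589 ± 0.0488 FPKM (difference -0.22, SE 0.19), and Ccr4, of helper T cells, 0.0926 ± 0.0658 and 0.135 ± 0.0344 (difference -0.33, SE 0.30). None of these 6 passed the limma test in any of the 5 comparisons, where adjusted p values ran from 0.146 to 0.997. Of all 2749 genes, 0% to 3.31% passed in these comparisons.

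Asprv1 was the only tested gene of 18 in the cornified epidermis and of 12 aspartic proteases. Of the epidermal genes 11 have their own identifier and 7 of these were above 0 in any mouse, the highest single level other than Asprv1 being 0.134 FPKM of Krt14 in 1 dexamethasone mouse. Casp14, Krtdap, Klk5 and Dsc1 of that list were at 0 in all 16 mice. The lists of CXCR2 signalling, glucocorticoid targets, macrophages, lymphocytes, fibroblasts and red cells have 0 genes under an own identifier, so the response of the usual glucocorticoid-induced genes is not analysed here. Among the other cell types, Gata1 and Il5ra of the eosinophil, mast cell and basophil list, Prox1 of lymphatic endothelium and Spdef of goblet cells were tested. In the 5 comparisons 0 of these 4 passed limma, where 0% to 3.31% of all 2749 genes did. The eosinophil, mast cell and basophil list summed to 0.507 to 0.653 FPKM in dexamethasone mice, above all WTCPM mice (0.283 to 0.443 FPKM). This was within the reach of rosoxacin mice (0.354 to 0.662 FPKM) and overlapped the higher range of control mice (0.580 to 1.28 FPKM). Gata1 and Il5ra, with means of 0.284 and 0.208 FPKM, made up most of the sum in dexamethasone mice. Of the 2749 single genes tested, 48 (1.75%) had all 4 dexamethasone mice above all 4 WTCPM mice. The part of this list in the members' levels was not tested.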

How the data were processed

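The authors deposited FPKM for 186512 transcripts in 32 libraries (16 mice, 2 lanes each). The submitters' processing notes name FastQC, HISAT, HISAT2 2.2.1, SAMtools 1.12, StringTie 2.1.5, R 4.0.4 and mm10. The annotation and read counts are not stated there. Transcripts were summed per gene, and the lanes of a mouse, which carry 1 animal in the labels, were averaged, so that n is mice. Of 26305 features with an Ensembl identifier, 24950 matched GENCODE M21 with their version. The 2749 with a mean of at least 0.1 FPKM were fitted on log2(FPKM + 0.1) with limma 3.58.1 in R 4.3.3 (4 groups in 1 fit, eBayes with trend, two-sided, Benjamini-Hochberg over all of them, threshold 0.05). The procedure was tested on simulated data.

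The members and gene lists were chosen with earlier results of these data known. Beside the members, the text names the 5 genes (3 after centring on group means) with the highest Pearson r to each member, predicted genes and variable segments left out, and every tested gene of the neutrophil, CXCR2 ligand, chemoattractant receptor, epidermal, protease and granulopoiesis lists, except 1 receptor gene whose values are not reported here. Ly6g, Mpo, Gm5483, Olfm4, Tarm1, Stfa2l1, Mrgpra2a, Mrgpra2b, Mgam, Fcnb, Krt14 and the epidermal genes at 0 were named after their values were seen. The promoter words were chosen after the files were read. Depth was estimated from the FPKM step of single-exon genes longer than 400 nucleotides (tolerance 0.4%). Between 114 and 179 such genes per lane sat at 1 fragment, and 88 to 139 at 0.5 fragments. Alternatives were other pseudocounts, scalings, filters, single lanes, a library number covariate, a replicate block, 2 groups alone, no trend, each mouse left out and, added after seeing the data, the second Cxcr2 row alone. Limma call counts for dexamethasone against rosoxacin are left out. Python 3.11.15 and matplotlib 3.10.9 were used.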

Additional observations from a re-analysis of the deposited data

Results flagged for a closer look

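In a group of 4 mice, a sample was singled out when its gap to the nearest of the others took up more of the range than Dixon's 95% value for 4 samples allows. Over 26 named genes and 104 groups this picked 7 (6.73%), where chance alone gives about 1 in 20.

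Cxcr2 stood at 1.37 FPKM in rosoxacin mouse 1, against 0.651 to 0.737 FPKM in the other 3 rosoxacin mice. Both of its lanes were high, at 1.29 and 1.46 FPKM. Gfi1 stood at 0.170 FPKM in rosoxacin mouse 3, against 0.0560 to 0.0747 FPKM in the others of that group, and this is also the rosoxacin mouse with the most Asprv1. Cxcl2 was at 0.340 FPKM in control mouse 1, with the other controls at 0.125 to 0.158 FPKM. Trem3 was low in control mouse 3, at 0.0897 FPKM against 0.468 to 0.512 FPKM, and in rosoxacin mouse 3, at 0.110 FPKM against 0.211 to 0.220 FPKM. Control mouse 3 also had the least Cxcr2 of all 16 mice, but the most Asprv1 of the control mice (0.207 FPKM). Acod1 was at 0.0489 FPKM in control mouse 1 and listed at 0 in the other controls. Rbm8a2 was at 0.379 FPKM in dexamethasone mouse 4, against 0.505 to 0.525 FPKM in the other 3.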

How the results depend on the processing

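Values here are log2 differences unless counts are named. The members' dexamethasone differences kept their sign in every alternative run. With a pseudocount of 1 they became 0.48 (Cxcr2 against WTCPM), 0.47 (Cxcr2 against control), 0.37, 0.48 and 0.31 (Asprv1 against WTCPM, control and rosoxacin). Asprv1 against control was 1.79 with a pseudocount of 0.01, 1.07 on lane 1 and 1.70 on lane 2, and Asprv1 against rosoxacin was 1.17 after rescaling to TPM. Cxcr2 against rosoxacin was 0.75 after that rescaling, 0.16 with median-of-ratios scaling, 0.50 on lane 1 and 0.29 on lane 2. With 1 mouse left out, Cxcr2 ran from 0.80 to 1.09 against WTCPM, 0.79 to 1.22 against control and 0.21 to 0.61 against rosoxacin, and Asprv1 from 0.92 to 1.11, 1.31 to 1.54 and 0.66 to 1.00. The correlation of the members ran from 0.575 to 0.767.

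Cxcr2 in WTCPM against control turned to -0.0021 with a pseudocount of 1, -0.0135 with median-of-ratios scaling, -0.0876 with quantile normalisation and -0.17 on lane 2, and ran from -0.18 to 0.25 with 1 mouse left out. Asprv1 in rosoxacin against WTCPM turned to -0.20 after rescaling to TPM and ran from -0.0155 to 0.32 with 1 mouse left out. In rosoxacin mice Cxcr2 against WTCPM was 0.19 after rescaling to TPM, 0.80 with median-of-ratios scaling, 0.30 on lane 1 and 0.83 on lane 2, and against control it was 0.32 and 0.78 with those scalings. No tested difference of a member passed the threshold in any alternative. The cause of these shifts was not tested.

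Counts of annotated genes called, with the members included, moved more. In WTCPM against control (0) the count was 1 with a pseudocount of 1, with assembled loci included, on lane 1, with the replicate block and with no trend, 2 with a pseudocount of 0.01 and with no filter, and 0 to 1 with 1 mouse left out. In dexamethasone against WTCPM (0) it was 1 with a pseudocount of 1 and with no trend. In dexamethasone against control (1) it was 2 with a pseudocount of 0.01, TPM, no filter and lane 2, 0 with median-of-ratios, quantile normalisation, a minimum of 0.5 FPKM, loci included, lane 1, the replicate block and only the 2 groups, and 0 to 3 with 1 mouse left out. In rosoxacin against WTCPM (15) it was 270 with TPM, 128 with loci included, 23 with a minimum of 0.5 FPKM, 6 with quantile normalisation, 5 with no filter, 3 with library number as covariate and with only the 2 groups, 0 on lane 1, and 2 to 24 with 1 mouse left out. In rosoxacin against control (91) it was 262 with TPM, 203 with loci included, 44 with median-of-ratios, 34 with quantile normalisation, 32 with a minimum of 0.5 FPKM, 24 with only the 2 groups, 21 with a pseudocount of 1, 16 and 7 on lanes 2 and 1, 7 with no filter, 0 with library number as covariate, and 11 to 122 with 1 mouse left out.

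Mouse numbers were not used to pair the samples in the main fit. Same-numbered mice of different groups had correlations of -0.156 to 0.304 (mean 0.0229), with 4 of 24 above 0.1. Different-numbered mice had -0.195 to 0.163 (mean -0.00757), with 4 of 72 above 0.1. Of the 16 mice, 7 correlated best with a mouse of their own number. Whether the numbers pair the mice was not tested. The replicate block could not change the members' differences, because every group holds the same mouse numbers, so their staying the same shows nothing about pairing. The block could change their SE and p values, and it brought no tested difference of a member past the threshold. With about 5 to 29 fragments of Asprv1 per mouse, counting error limits what a single mouse can show.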
